A study of Homo sapiens with 12 samples.

Results

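Degron (++) cells, the PANC-1 cells with the lowest proteasome activity, were compared by RNA sequencing with and without irradiation at the 48 h time point. There were 2 libraries at 4 Gy and 2 libraries at 0 Gy, which are 4 of the 12 libraries of the study. The 4 libraries were taken by their labels alone (ZsGreen++, 48 h, 4 Gy or 0 Gy), so no measured value chose them. The gene-wise comparison covered 11677 of 23284 listed genes, those that reached an FPKM of 1 in 2 or more of these 4 libraries. FPKM is the number of fragments per kilobase of exon, scaled to the number of mapped reads, and the values were analyzed as log2(FPKM + 1). For genes with low FPKM, a fold change on that scale is smaller than the ratio of the FPKM themselves.

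PANC-1 is a human pancreatic ductal carcinoma cell line. In all 12 libraries the cells carry a retroviral reporter that joins ZsGreen, a green fluorescent protein, with the degron of ornithine decarboxylase, a sequence that the proteasome degrades directly, so that ZsGreen accumulates where proteasome activity is low. Degron (++) cells are the brightest ZsGreen cells of a line enriched by repeated sorting, and degron (−) cells are the reporter line in which few cells are ZsGreen positive. For each population the labels give 2 libraries at 48 h and 0 Gy, 2 at 30 h and 4 Gy and 2 at 48 h and 4 Gy, without saying which event starts the count of hours. The libraries used as degron (−) are called ZsGreen– in their titles and d+ in their descriptions. Irradiation was with gamma rays of a cesium source. All libraries come from 1 cell line, and nothing in the labels says that replicates are separate cultures, so p-values here measure only the spread between these libraries.

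Ionizing radiation breaks DNA, and the breaks activate kinases that hold the cell cycle at its checkpoints. In the days after the dose, surviving cells can express inflammatory and secreted genes through NF-kB, interferon-stimulated genes, and genes of growth arrest or senescence. Proteasomes take part in several of these steps, since they remove cyclins and the NF-kB inhibitor IkB.

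The 4 libraries were alike in depth and content. Their summed FPKM ran from 829654 to 916877, 11547 to 11589 genes had FPKM of at least 1, and the microRNA gene MIR622 alone held 29.1% to 29.8% of the sum. The number of reads behind an FPKM is unknown, but relative depths, read from the steps between low values, differed little (0.953 to 1.03). Log values correlated at 0.971 between the 0 Gy replicates, at 0.974 between the 4 Gy replicates and at 0.966 to 0.970 between doses, across the tested genes, which do not count as replicates. The epithelial markers KRT7, KRT8, KRT18, KRT19, SOX9 and EPCAM were all expressed, with a summed FPKM of 7137 to 7592 at 0 Gy and 7804 to 8325 at 4 Gy. Fibroblast markers summed to at most 25.4 FPKM, nearly all of it LUM. Leukocyte markers summed to at most 2.01, and 3 of their 7 genes were listed at 0 in all 4 libraries.

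Between 4 Gy and 0 Gy, 277 genes differed past the threshold (limma, Benjamini-Hochberg adjusted p under 0.05), which is 2.37% of the tested genes. Of these, 220 were higher at 4 Gy (1.88%) and 57 were lower (0.488%). The changes were small: the median log2 fold change was 0.37 among the genes that were higher and −0.35 among those that were lower. Only 12 genes rose by more than 1 on the log2 scale and 1 fell by more than 1. The genes that rose included 9 of 40 tested clustered histone genes, 4 of them tested only because of the 4 Gy libraries. Of the other 31 histone genes 5 rose. So did 5 of 9 NF-kB regulators and 2 of 10 cytokines and chemokines. Damage-induced genes of growth arrest held 2 calls among 10, autophagy genes 3 among 11 and the WNT list 1 among 13. DNA repair, S phase, proteasome and heat shock genes had no member past the threshold in this fit.

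All 277 genes had both 4 Gy libraries on one side of both 0 Gy libraries. This holds for 25.6% of the tested genes in the upward direction and 23% in the downward direction, and 51.9% of the tested genes had a log2 fold change above 0, with a median of 0.0056. An exact permutation test of 2 against 2 libraries cannot give a two-sided p below 0.333, so every call rests on the spread that limma pooled over genes and over the 6 groups. With the spread taken from the 4 libraries alone, 54 genes passed (43 higher, 11 lower). Only 33 of these 54 were among the 277, 29 of them higher and 4 lower. Leaving out a library gave 39 genes without 4 Gy replicate 1, 20 without 4 Gy replicate 2, 17 without 0 Gy replicate 1 and 59 without 0 Gy replicate 2. The share of calls that were higher, 79.4%, was 66.4% after quantile normalization, 60.9% after rescaling each library to the same sum (TPM) and 56.5% after small RNA genes were left out and the rest rescaled.

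**Figure D1:**
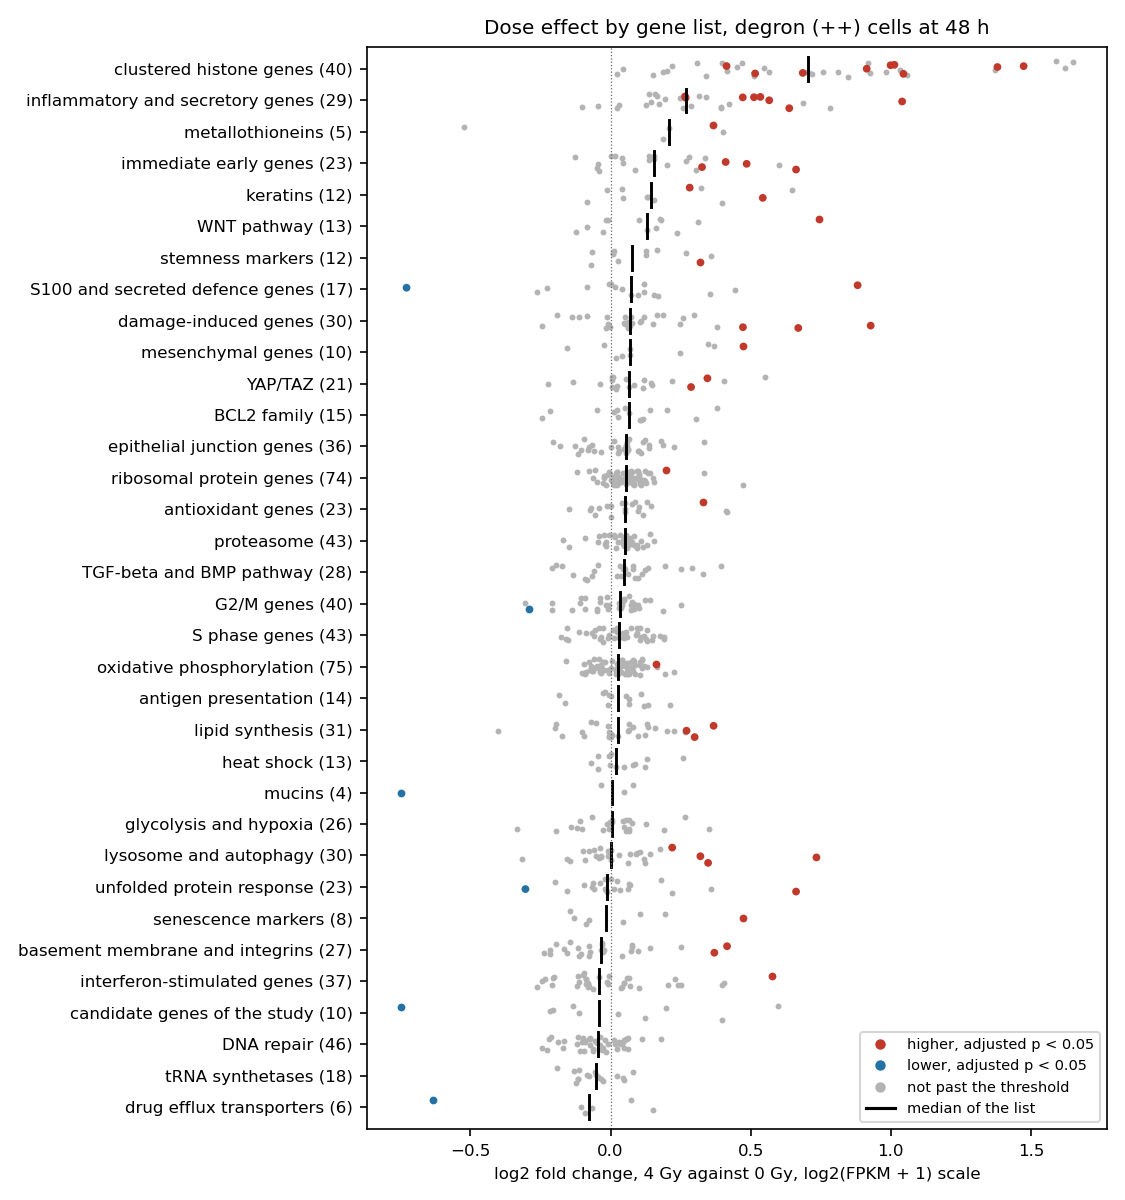
Log2 fold change of 4 Gy against 0 Gy on the log2(FPKM + 1) scale (x axis) for the tested members of each gene list (y axis, number of tested members in parentheses), in degron (++) cells at 48 h. Each point is a gene, red where it was higher and blue where it was lower past adjusted p of 0.05 (limma), and the black bar is the median of the list. The histone list, with a median of 0.71 that includes genes tested only because of the 4 Gy libraries, lies apart on the right. The inflammatory list follows at 0.27, and most other lists centre near 0.

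Histone genes had the highest median log2 fold change of the lists plotted. The clustered histone genes code for the core and linker histones that package new DNA, and their mRNAs are made mainly in S phase and mostly end in a stem-loop in place of a poly(A) tail. The files list 71 of them, of which 15 were at 0 in all 4 libraries and 40 were tested. Of the 40, 9 had FPKM below 1 in both 0 Gy libraries and were tested only because of the 4 Gy libraries, so they had to differ. A total of 9 of the 40 rose and none fell, and 4 of the 9 calls (HIST1H4F, HIST1H3F, HIST1H1E and HIST1H1B) were among those tested only through the 4 Gy libraries. Of the other 31 genes, 5 rose, beside 1.88% of all tested genes. All 40, among them the genes that had to differ, had a log2 fold change above 0. The median was 0.71, beside 0.0056 for all tested genes. With the filter at FPKM 5, 15 histone genes were tested and their median was 0.55. Counted over all 71 genes listed, 54 had a higher mean at 4 Gy and 2 a lower mean.

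The summed FPKM of the clustered histone genes was 542 and 558 in the 0 Gy libraries and 880.1 and 857 in the 4 Gy libraries. Both 4 Gy libraries lay far above both 0 Gy libraries, and the ratio of the means was 1.58. The 2 libraries of 4 Gy and 30 h lay between, at 726 and 722. H2B genes gave the largest part of the sum, 364 and 362 FPKM at 0 Gy and 549 and 541 at 4 Gy. HIST1H2BK alone held 264 and 269.8 of these at 0 Gy and 379.9 and 383 at 4 Gy. Linker histone H1 genes summed to 98.6 and 98.0 at 0 Gy and to 164 and 160.0 at 4 Gy. HIST1H1C alone held 96.4 and 95.2 of these at 0 Gy and 156 and 153 at 4 Gy, so the sums rest largely on single genes. H4 genes summed to 18.2 and 16.4 at 0 Gy and to 47.2 and 44.2 at 4 Gy. The library kit selects poly(A) mRNA, so the values may cover only a part of the histone transcripts. In the same libraries RMRP, an RNA that carries no poly(A) tail, had 23.3 and 20.3 FPKM at 0 Gy and 241 and 157 at 4 Gy. RPPH1, another such RNA, had 17.6 and 9.20 FPKM at 0 Gy and 156 and 95.8 at 4 Gy. RMRP and RPPH1 moved in the same direction as the histone sum, while the summed FPKM of small RNA genes without MIR622 overlapped between the doses. The part of poly(A) selection or RNA quality in the histone result was not tested. In degron (−) cells at 48 h, RMRP had 14.4 and 12.4 FPKM at 0 Gy and 62.0 and 24.5 at 4 Gy.

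Among single histone genes, HIST1H1C, which codes for a linker histone, had 96.4 and 95.2 FPKM at 0 Gy and 156 and 153 at 4 Gy. The log2 fold change was 0.69, with a standard error of 0.0663 and an adjusted p of 0.00313 in limma. HIST1H2BK, an H2B gene, had 264 and 269.8 FPKM at 0 Gy and 379.9 and 383 at 4 Gy (log2 fold change 0.52, standard error 0.0524, adjusted p = 0.00355). These genes were chosen after their values were seen, and both stayed past the threshold in 16 of 16 alternatives. HIST1H4H had 5.08 and 9.39 FPKM at 0 Gy and 20.2 and 21.9 at 4 Gy, a log2 fold change of 1.47 (adjusted p = 0.0198). HIST1H2BC had 14.7 and 13.6 at 0 Gy and 28.1 and 32.4 at 4 Gy, a log2 fold change of 1.04 (adjusted p = 0.0395). HIST1H4H passed in 10 and HIST1H2BC in 7 of 16 alternatives. In each of the 4 genes the doses did not overlap.

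The other 5 histone genes that passed included 4 of low level. HIST1H4F was listed at 0 in both 0 Gy libraries and had 1.66 and 1.55 FPKM at 4 Gy. HIST1H3F had 0.327 and 0.956 FPKM at 0 Gy and 1.72 and 2.89 at 4 Gy. HIST1H1E, HIST1H1B and HIST2H2BE, chosen after their values were seen, had log2 fold changes of 1.0, 0.91 and 0.41. HIST1H4F, HIST1H3F, HIST1H1E and HIST1H1B passed in 9, 6, 4 and 5 of 15 alternatives and HIST2H2BE in 8 of 16. Many histone genes are near-identical copies, so reads may have been split between them and single-gene values are uncertain, while the class sums are less exposed. Beside these 9, the number of histone genes past the threshold was 4 after TPM rescaling, 4 in the fit of 4 libraries and 2 to 4 when a library was left out. Under the 3 rescalings the list's median stayed between 0.66 and 0.77, and 39 of the 40 genes kept a log2 fold change above 0.

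**Figure D2:**
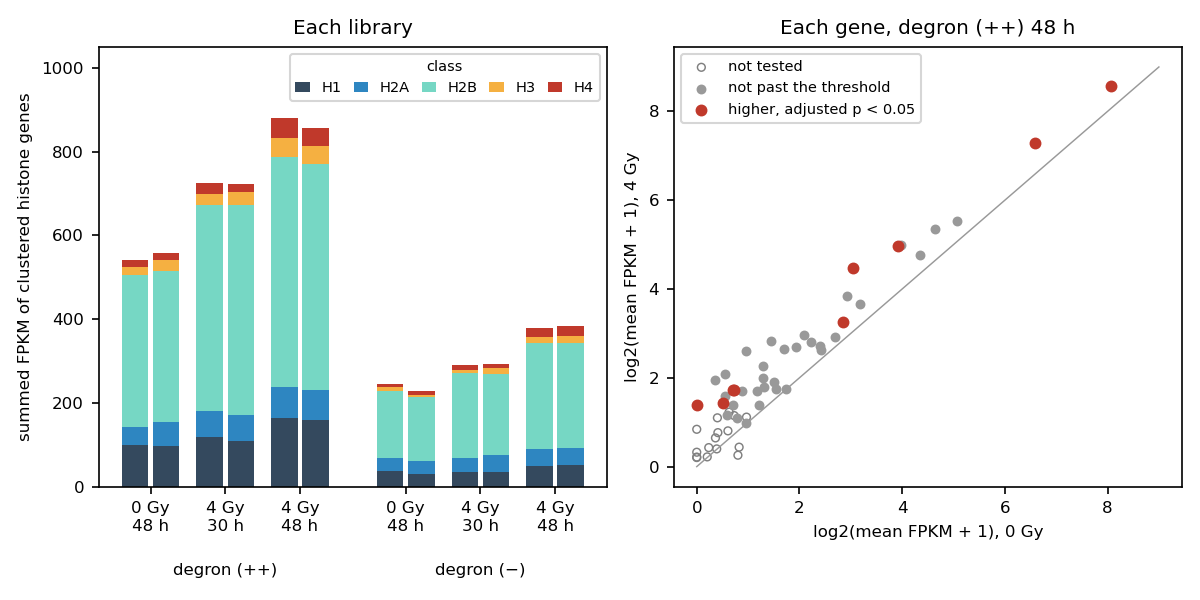
Left, summed FPKM of the clustered histone genes (y axis, from 0) in each of the 12 libraries, 1 bar per library, stacked by histone class. Right, log2(mean FPKM + 1) at 4 Gy (y axis) against 0 Gy (x axis) for each histone gene above 0 in degron (++) cells at 48 h, with the line of equal values. The bars of degron (++) cells rise from 542 and 558 at 0 Gy to 880.1 and 857 at 4 Gy and 48 h, and most points lie above the line.

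The sequences upstream of 4 of these genes are shown for the letters they share. The windows run from 250 bases before to 50 after the gene's start in RefSeq on GRCh38.p14. The files use hg19, so these coordinates are those of RefSeq and not of the files. In capitals are the octamer ATTTGCAT, which H2B promoters are known to carry, and CCAAT, both searched on both strands, so that CCAAT on the other strand reads ATTGG. HIST1H2BC is at chr6:26123877-26124176, HIST1H2BK at chr6:27146809-27147108, HIST1H1C at chr6:26056421-26056720 and HIST2H2BE at chr1:149886633-149886932, all on the minus strand.
HIST1H2BC: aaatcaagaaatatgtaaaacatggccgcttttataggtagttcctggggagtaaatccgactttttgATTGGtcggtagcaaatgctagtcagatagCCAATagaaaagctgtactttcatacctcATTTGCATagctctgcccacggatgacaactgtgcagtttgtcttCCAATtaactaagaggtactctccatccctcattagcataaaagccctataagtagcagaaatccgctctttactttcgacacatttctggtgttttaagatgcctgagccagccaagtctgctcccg
HIST1H2BK: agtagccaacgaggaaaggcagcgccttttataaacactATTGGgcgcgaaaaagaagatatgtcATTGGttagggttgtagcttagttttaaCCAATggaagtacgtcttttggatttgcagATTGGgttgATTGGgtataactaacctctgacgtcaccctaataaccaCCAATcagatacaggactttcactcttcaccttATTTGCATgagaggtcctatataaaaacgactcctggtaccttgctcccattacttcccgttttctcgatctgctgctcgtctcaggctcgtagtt
HIST2H2BE: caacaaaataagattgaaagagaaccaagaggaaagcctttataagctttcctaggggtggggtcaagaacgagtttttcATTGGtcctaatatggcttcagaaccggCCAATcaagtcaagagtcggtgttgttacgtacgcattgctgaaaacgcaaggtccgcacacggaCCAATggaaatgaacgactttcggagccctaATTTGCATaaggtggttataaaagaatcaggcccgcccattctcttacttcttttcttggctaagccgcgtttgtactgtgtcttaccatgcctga
HIST1H1C: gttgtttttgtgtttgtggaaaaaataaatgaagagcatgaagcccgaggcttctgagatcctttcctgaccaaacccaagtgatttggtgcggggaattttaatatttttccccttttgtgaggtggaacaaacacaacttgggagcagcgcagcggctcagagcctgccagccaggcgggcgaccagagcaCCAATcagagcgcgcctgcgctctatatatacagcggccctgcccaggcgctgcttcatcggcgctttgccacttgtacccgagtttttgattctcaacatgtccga

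The octamer stood in the 3 H2B windows and in none of the other 6 histone genes past the threshold. Among the tested H2B genes with a window that did not pass, 4 of 8 held it, and 1.77% of 35116 RefSeq windows of the same length did. CCAAT stood in 8 of the 9 histone windows and in 34.6% of all windows. For each gene only the first listed window was searched, and HIST1H2BK had 2. A match describes letters only.

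The inflammatory and secretory genes followed. Of 38 genes listed, 29 were tested, 8 rose and none fell (1.88% of all genes rose), and 27 had a log2 fold change above 0, with a median of 0.27. In 25 of the 29 both 4 Gy libraries lay above both 0 Gy libraries, as they did in 25.6% of all tested genes. The regulators of NF-kB, the transcription factor family that drives inflammatory genes, held 5 of the 8 calls among 9 tested genes. Cytokines and chemokines held 2 among 10, and proteases and growth factors 1 among 10.

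The windows of 4 of these genes are shown in the same way. In capitals is the NF-kB letter pattern GGANTTTCC, searched on both strands. IL8 is at chr4:73740319-73740618, IL6 at chr7:22726950-22727249, TNFAIP3 at chr6:137867009-137867308 and ICAM1 at chr19:10270870-10271169, all on the plus strand of GRCh38.p14.
IL8: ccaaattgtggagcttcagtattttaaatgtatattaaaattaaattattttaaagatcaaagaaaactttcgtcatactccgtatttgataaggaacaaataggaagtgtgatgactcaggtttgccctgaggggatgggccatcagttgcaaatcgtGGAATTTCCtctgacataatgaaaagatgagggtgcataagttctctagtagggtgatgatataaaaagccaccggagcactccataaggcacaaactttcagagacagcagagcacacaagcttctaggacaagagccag
IL6: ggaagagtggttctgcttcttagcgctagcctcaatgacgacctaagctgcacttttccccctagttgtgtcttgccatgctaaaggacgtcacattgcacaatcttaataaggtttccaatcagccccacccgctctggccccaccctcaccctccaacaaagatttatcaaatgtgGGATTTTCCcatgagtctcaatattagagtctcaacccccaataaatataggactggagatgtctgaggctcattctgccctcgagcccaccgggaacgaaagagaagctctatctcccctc
TNFAIP3: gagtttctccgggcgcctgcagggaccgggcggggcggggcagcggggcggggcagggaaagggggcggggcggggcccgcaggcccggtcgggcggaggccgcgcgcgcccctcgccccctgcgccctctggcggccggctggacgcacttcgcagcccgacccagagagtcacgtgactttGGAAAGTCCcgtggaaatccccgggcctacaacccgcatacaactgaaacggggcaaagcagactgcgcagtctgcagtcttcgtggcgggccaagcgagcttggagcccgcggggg
ICAM1: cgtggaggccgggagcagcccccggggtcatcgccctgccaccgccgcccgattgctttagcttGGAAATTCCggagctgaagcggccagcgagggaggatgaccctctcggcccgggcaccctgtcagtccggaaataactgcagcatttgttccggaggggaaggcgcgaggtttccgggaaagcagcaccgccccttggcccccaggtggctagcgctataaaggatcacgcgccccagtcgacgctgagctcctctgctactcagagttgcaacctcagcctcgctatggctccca

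Of the 8 inflammatory genes past the threshold, 7 had a RefSeq window, and 5 of these held the pattern. It stood in 2 of the 14 windows of tested list members that did not pass, and in 1.64% of all windows. For each gene only the first listed window was searched, and NFKB2, counted without the pattern, had 3.

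IL8, also called CXCL8, attracts neutrophils. It had 1.58 and 0.988 FPKM at 0 Gy and 3.60 and 3.71 at 4 Gy, which is 1.04 on the log2 scale (adjusted p = 0.0446, standard error 0.218, limma). IL6, a cytokine of the acute phase response, had 19.3 and 16.3 FPKM at 0 Gy and 28.9 and 27.4 at 4 Gy, which is 0.64 on the log2 scale (adjusted p = 0.0431, standard error 0.131). The doses did not overlap in either cytokine. Both were near the threshold, and IL8 passed in 2 of 15 and IL6 in 3 of 16 alternatives.

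TNFAIP3 codes for an enzyme that ends NF-kB signalling. It had 5.13 and 4.49 FPKM at 0 Gy, 7.31 and 7.88 at 4 Gy and, at 30 h, 8.90 and 9.48, and the 48 h change was 0.57 on the log2 scale (adjusted p = 0.0113, standard error 0.0737). BIRC3, an inhibitor of apoptosis and NF-kB target, had 8.91 and 8.33 FPKM at 0 Gy and 14.2 and 11.8 at 4 Gy (log2 fold change 0.53, adjusted p = 0.0217). In both genes the 4 Gy libraries were above the 0 Gy libraries. NFKB2, which codes for an NF-kB subunit, NFKBIA, which codes for IkB alpha, and ICAM1, an adhesion molecule, also rose, with log2 fold changes of 0.47, 0.27 and 0.27, and were chosen after their values were seen. None of the 29 genes passed after TPM rescaling, 1 passed in the fit of 4 libraries and 1 or 2 passed when a library was left out, while the list's median stayed between 0.20 and 0.32 under these settings.

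Immediate early genes, which respond quickly to growth factors and stress, had 4 of 23 tested members higher and none lower (1.88% of all tested genes were higher), with a median of 0.15. ATF3, a stress-induced transcription factor, had 2.67 and 2.59 FPKM at 0 Gy and 4.63 and 4.84 at 4 Gy (log2 fold change 0.66, standard error 0.112, adjusted p = 0.0233, limma). FOSL1, a FOS family transcription factor, had 91.7 FPKM in both 0 Gy libraries and 115 and 116 at 4 Gy (log2 fold change 0.33, adjusted p = 0.0198). DUSP5 and DUSP6, phosphatases that act on ERK, rose by 0.49 and 0.41 on the log2 scale. None of the 4 passed after TPM rescaling or in the fit of 4 libraries.

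Of 30 tested genes known to be induced by DNA damage, 3 rose and none fell (1.88% of all tested genes rose), and the median log2 fold change was 0.07. CDKN1A, which codes for the cell cycle inhibitor p21, had 5.82 and 6.80 FPKM at 0 Gy and 9.42 and 8.82 at 4 Gy (log2 fold change 0.47, standard error 0.0868, adjusted p = 0.0317, limma). GADD45A, induced by DNA damage, had 15.7 and 18.1 FPKM at 0 Gy and 28.2 and 26.5 at 4 Gy (log2 fold change 0.67, standard error 0.0838, adjusted p = 0.0107). GDF15, a secreted stress protein, stood low, at 0.255 and 0.414 FPKM at 0 Gy and 1.96 and 1.17 at 4 Gy (log2 fold change 0.93, adjusted p = 0.0431), and was tested only because of the 4 Gy libraries. In all 3 genes the doses did not overlap. The 4 feedback genes of the list, among them MDM2, did not pass: MDM2 had 10.5 and 9.94 FPKM at 0 Gy and 11.5 and 11.4 at 4 Gy (adjusted p = 0.212). BAX, an effector of apoptosis, had 78.9 and 86.5 FPKM at 0 Gy and 90.5 and 87.5 at 4 Gy (adjusted p = 0.63). GDF15 passed in 3 of 15 alternatives, CDKN1A in 7 of 16 and GADD45A in 11 of 16.

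Cell cycle genes were nearly level. Of 40 G2/M genes tested, 1 fell and none rose (0.488% of all tested genes fell), with a median of 0.03. The 1 was the proliferation marker MKI67, with 70.5 and 66.9 FPKM at 0 Gy and 56.3 and 55.7 at 4 Gy (log2 fold change −0.29, standard error 0.0576, adjusted p = 0.0403, limma), and it passed in 5 of 16 alternatives. The 13 kinases and cyclins had a median of 0.07, and CCNB1, cyclin B1, had 252 FPKM in both 0 Gy libraries and 289 and 285 at 4 Gy (adjusted p = 0.105). CDK1, PLK1 and TOP2A had log2 fold changes of 0.08, 0.03 and −0.09, none past the threshold. None of the 43 S phase genes passed in either direction, with a median of 0.03, and MCM2, PCNA and RRM2 had log2 fold changes of 0.12, 0.02 and 0.13. The histone genes had a median of 0.71 beside 0.03 for the other genes of S phase. The 0.71 includes histone genes tested only because of the 4 Gy libraries, and the S phase list holds no such gene. With the filter at FPKM 5 the medians were 0.55 over 15 histone genes and 0.03 over 42 S phase genes.

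None of the 46 DNA repair genes passed, and 15 of them had a log2 fold change above 0, with a median of −0.04. The damage signalling genes had a median of −0.07 over 16 genes, homologous recombination −0.03 over 13, end joining −0.07 over 7 and crosslink repair −0.04 over 10. None of the 15 genes of the BCL2 family, which decide between survival and apoptosis, passed, with BCL2L1 at 0.12 and MCL1 at 0.01. Of 8 senescence markers, CDKN1A alone passed, beside 1.88% of all tested genes that rose.

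Degron (++) cells are defined by the proteasome, and its genes showed no call. The 43 tested proteasome genes had a median log2 fold change of 0.05 and none passed. The median was 0.05 for the 14 core genes, 0.06 for the 20 genes of the regulatory particle and 0.02 for the 9 genes of the immunoproteasome and activators. PSMB5, a catalytic core subunit, had 258 and 266 FPKM at 0 Gy and 266 and 286 at 4 Gy, with a log2 fold change of 0.07 (adjusted p = 0.532, limma). None of 13 heat shock chaperones passed.

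Autophagy and the lysosome serve the other route of protein disposal, and 4 of 30 tested genes of that list rose and none fell (1.88% of all tested genes rose). GABARAPL1, an ATG8 family member, had 43.0 and 46.1 FPKM at 0 Gy and 69.8 and 79.9 at 4 Gy (log2 fold change 0.73, standard error 0.0739, adjusted p = 0.00355, limma), and passed in 16 of 16 alternatives. SQSTM1, the cargo receptor p62, had 174 and 177 FPKM at 0 Gy and 221 and 227 at 4 Gy (log2 fold change 0.35, standard error 0.0427, adjusted p = 0.0106). MAP1LC3B, another ATG8 gene, rose by 0.32 on the log2 scale, and the lysosomal galactosidase GLA by 0.22. SQSTM1 passed in 11, MAP1LC3B in 6 and GLA in 2 of 16 alternatives, and in the fit of 4 libraries 1 gene of the list passed. The doses did not overlap in any of them. Over the whole list of 30 lysosome and autophagy genes the median was 0.0016, and 16 genes had a log2 fold change above 0.

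Stress lists had single calls, beside 1.88% of all tested genes that rose and 0.488% that fell. In the unfolded protein response list, ATF3 rose and ASNS, asparagine synthetase, fell, from 71.2 and 79.0 FPKM at 0 Gy to 60.5 and 60.6 at 4 Gy (log2 fold change −0.30, adjusted p = 0.0317, limma). At 30 h ASNS had 91.2 and 98.3 FPKM. HSPA5, the main chaperone of the endoplasmic reticulum, had a log2 fold change of −0.02. Of 23 antioxidant genes, OSGIN1 rose by 0.33 and NQO1 was at −0.06 (adjusted p = 0.483). Of 5 metallothioneins, MT2A rose, from 324 and 361 FPKM at 0 Gy to 462 and 419.9 at 4 Gy (log2 fold change 0.36, adjusted p = 0.0256).

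Of 37 interferon-stimulated genes tested, 1 rose and none fell (1.88% of all tested genes rose). Of the 37, 15 had a log2 fold change above 0, with a median of −0.04. The 1 was IFIT2, which binds foreign RNA, with 13.1 and 12.9 FPKM at 0 Gy and 20 and 19.7 at 4 Gy (log2 fold change 0.58, standard error 0.0723, adjusted p = 0.0107, limma). ISG15 and IFIT1 had log2 fold changes of 0.23 and 0.07, neither past the threshold. None of 14 antigen presentation genes passed.

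The largest rise of the WNT list, and the gene with the smallest adjusted p of the named genes, was DKK1, a secreted WNT antagonist. DKK1 had 46.0 and 46.4 FPKM at 0 Gy and 77.7 and 78.2 at 4 Gy, which is 0.74 on the log2 scale (adjusted p = 3.48e-05, standard error 0.0335, limma), and passed in 16 of 16 alternatives. The libraries at 4 Gy and 30 h lay between, at 63.6 and 63.5 FPKM. It was 1 of 13 tested WNT genes past the threshold, beside 1.88% of all tested genes that were higher. Targets of YAP and TAZ held 2 calls among 12, beside the same 1.88%. These were CYR61, a matricellular protein, with a log2 fold change of 0.35, and F3, tissue factor. F3 had 375 FPKM in both 0 Gy libraries and 456 and 459 at 4 Gy (log2 fold change 0.29, standard error 0.0410, adjusted p = 0.0153). SOX9, a ductal progenitor factor, rose from 18.2 and 17.4 FPKM to 22 and 22.9 (log2 fold change 0.32, adjusted p = 0.0115), and was the only one of 12 tested stemness markers to pass. CD44 had 109 FPKM in both 0 Gy libraries and 119 in both 4 Gy libraries (adjusted p = 0.107).

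**Figure D3:**
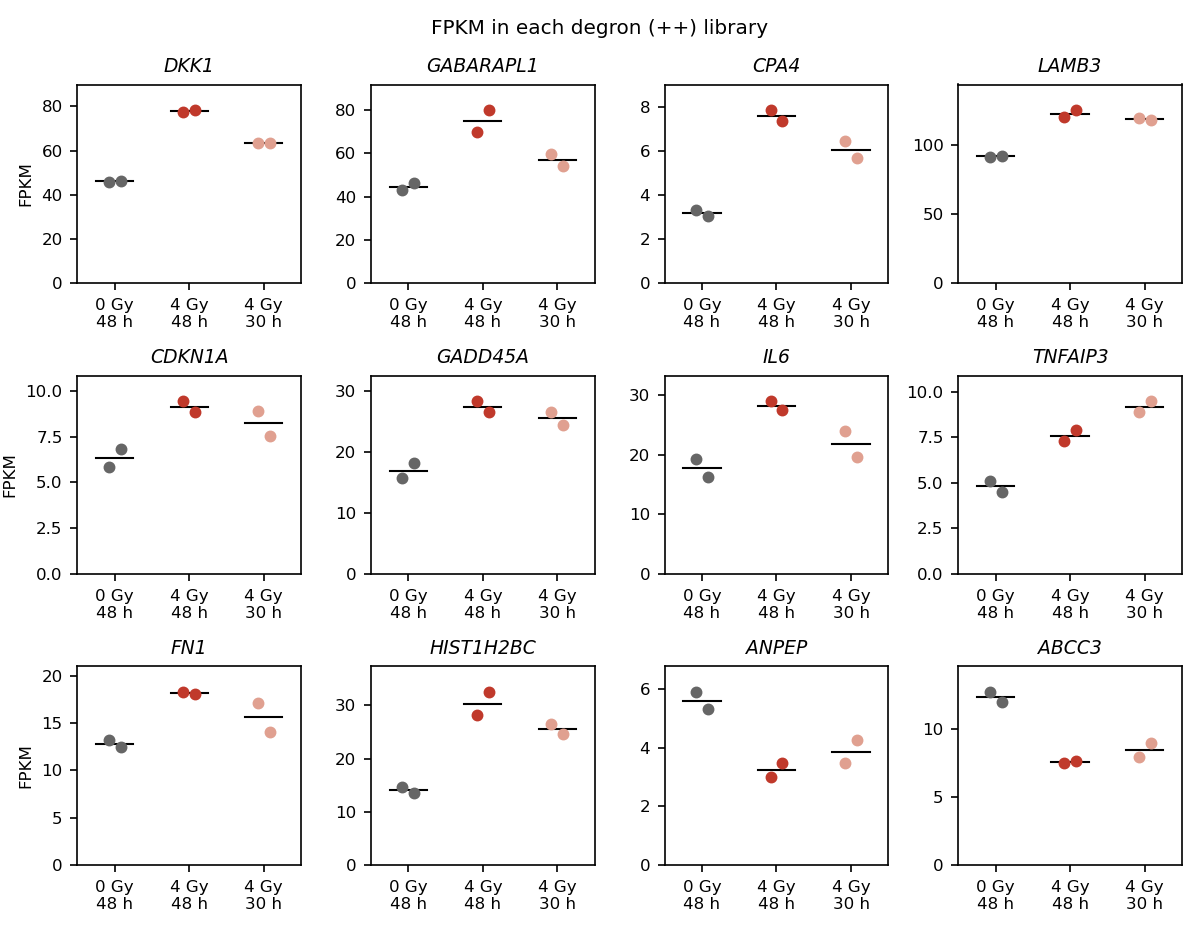
FPKM (y axis, from 0) of 12 genes in each degron (++) library, at 0 Gy and 48 h (grey), 4 Gy and 48 h (red) and 4 Gy and 30 h (light red). Points are libraries and bars the means of 2. In DKK1, GABARAPL1 and CPA4 both red points lie above the grey ones, with the 30 h libraries between, and in ANPEP and ABCC3 both red points lie below the grey ones.

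CPA4, a carboxypeptidase, had 3.30 and 3.02 FPKM at 0 Gy and 7.83 and 7.37 at 4 Gy (log2 fold change 1.05, standard error 0.0929, adjusted p = 0.00313, limma), and passed in 16 of 16 alternatives. MFAP5, a protein of elastic microfibrils, had 5.68 and 7.10 FPKM at 0 Gy and 15.6 and 14.3 at 4 Gy (log2 fold change 1.11, adjusted p = 0.0113). IGFL1, a secreted protein of the IGF-like family, had 0.451 and 0.586 FPKM at 0 Gy and 3.15 and 1.77 at 4 Gy (log2 fold change 1.16, adjusted p = 0.0441), was tested only because of the 4 Gy libraries and passed in 2 of 15 alternatives. The doses did not overlap in any of the 3. PI3, the protease inhibitor elafin, rose by 0.88 on the log2 scale.

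Matrix and adhesion lists split, and their calls stand beside 1.88% of all tested genes that were higher. Among 27 basement membrane and integrin genes, LAMB3, a laminin chain of epithelial basement membranes, rose from 90.8 and 92.1 FPKM to 119.9 and 125 (log2 fold change 0.42, standard error 0.0662, adjusted p = 0.0206, limma), and NID2, nidogen 2, rose from 43.2 and 42.9 to 56.5 and 55.4 (log2 fold change 0.37, adjusted p = 0.0171). The list's median was −0.03, and the 9 collagen IV and linker genes had a median of −0.14 with NID2 the 1 gene above 0. None of the 36 epithelial junction genes passed, with a median of 0.06. FN1, fibronectin, rose from 13.2 and 12.5 FPKM to 18.2 and 18.1 (log2 fold change 0.47, adjusted p = 0.0441). It was the 1 call among 10 tested mesenchymal genes and passed in 3 of 16 alternatives, while VIM had a log2 fold change of −0.15 (adjusted p = 0.255). None of 28 TGF-beta and BMP genes passed.

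KRT13, the keratin that the study took up, had 83.2 and 83.3 FPKM at 0 Gy, 108 and 112 at 4 Gy and, at 30 h, 81.3 and 80.7. The doses at 48 h did not overlap, but the spread that the fit assigned to KRT13 was wide, and its log2 fold change of 0.40 had a standard error of 0.227 (adjusted p = 0.39, limma). It passed in 2 of 16 alternatives, the fits of the 6 degron (++) libraries and of the 4 libraries, and its adjusted p ran from 0.0110 to 0.636 over the 16. Of 12 tested keratins 2 rose, beside 1.88% of all tested genes. KRT4, tested only because of the 4 Gy libraries, rose from 0.652 and 0.593 FPKM to 1.28 and 1.45 (log2 fold change 0.54, adjusted p = 0.0364, limma). KRT80 rose from 29.7 and 28.0 to 35.6 and 35.0 (log2 fold change 0.28, adjusted p = 0.037, limma). MMP12, another gene of the study's candidate list, had a log2 fold change of 0.12 (adjusted p = 0.747). The study's values for that list, 83.22 FPKM for KRT13 and 6.88 for MUC16, equal the means of the 0 Gy libraries used here. The list was thus chosen on a high fold change over degron (−) cells at 0 Gy and not at 4 Gy, a choice that favours a fall. Of its 10 genes 1 passed, MUC16, which was lower, beside 0.488% of all tested genes that fell. The log2 fold change was above 0 in 5 of the 10. In the fit of 6 degron (++) libraries and in that of 4 libraries, 2 of the 10 genes rose and 0 fell.

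Metabolic lists moved little, and their calls stand beside 1.88% of all tested genes that rose. Of 23 cholesterol synthesis genes, 3 rose: HMGCS1, which makes the precursor of mevalonate, had 91.7 and 89.4 FPKM at 0 Gy and 121 and 114 at 4 Gy (log2 fold change 0.37, standard error 0.0701, adjusted p = 0.0353, limma), IDI1 rose by 0.27 and MSMO1 by 0.30. In these 23 genes 18 had a log2 fold change above 0, with a median of 0.08, while 1 of 8 fatty acid genes did, with a median of −0.13. MSMO1 passed in 1 of 16 alternatives. NDUFB9 was the 1 call among 75 oxidative phosphorylation genes (log2 fold change 0.16) and RPS10 among 74 ribosomal protein genes (log2 fold change 0.20). None of 26 glycolysis and hypoxia genes and none of 18 tRNA synthetases passed.

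Among the genes that fell, MUC16, a membrane mucin, had 7.87 and 5.90 FPKM at 0 Gy and 3.52 and 3.81 at 4 Gy (log2 fold change −0.75, standard error 0.140, adjusted p = 0.0338, limma). RARRES1, a retinoid-responsive gene, had 14.4 and 12.9 FPKM at 0 Gy and 6.79 and 9.03 at 4 Gy (log2 fold change −0.73, adjusted p = 0.029). ABCC3, a drug efflux pump, had 12.6 and 12 FPKM at 0 Gy and 7.49 and 7.65 at 4 Gy (log2 fold change −0.63, adjusted p = 0.0167). In these 3 genes both irradiated libraries lay below both unirradiated ones. ABCC3 was the only one of 6 tested efflux transporters to pass, beside 0.488% of all tested genes that fell.

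ANPEP, aminopeptidase N, had 5.88 and 5.32 FPKM at 0 Gy and 3.01 and 3.49 at 4 Gy (log2 fold change −0.64, adjusted p = 0.0122, limma). DNAJC4, a J-domain protein, fell from 8.54 and 8.31 to 4.93 and 5.31 (log2 fold change −0.62, standard error 0.0597, adjusted p = 0.00313) and passed in 14 of 16 alternatives. CRIP2, a LIM domain protein, fell from 25.4 and 23.7 to 16.2 and 16.9 (log2 fold change −0.54, adjusted p = 0.00993). The doses did not overlap in any of these genes. VCAN, UNC5A, CHKB and LOC441455, also among the 12 largest falls, had log2 fold changes of −0.56, −0.60, −0.57 and −0.51. In the libraries at 4 Gy and 30 h, VCAN had 3.85 and 4.13 FPKM, UNC5A 6.37 and 6.25 and CHKB 8.5 and 6.93, all below their 48 h values without irradiation.

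Small noncoding RNA genes gave the steepest values. RMRP and RPPH1, the RNA parts of RNase MRP and RNase P, are transcribed by RNA polymerase III and carry no poly(A) tail. With the FPKM given beside the histone sums, the log2 fold change was 3.10 for RMRP (adjusted p = 0.0122, standard error 0.420, limma) and 3.16 for RPPH1 (adjusted p = 0.0198, standard error 0.493). In both genes the doses did not overlap, although the 4 Gy replicates differed. In the libraries at 4 Gy and 30 h RMRP had 23.9 and 49.0 FPKM and RPPH1 18.7 and 27.6. SNORA45, a small nucleolar RNA, had 22 and 21.5 FPKM at 0 Gy and 92.5 and 86.6 at 4 Gy (log2 fold change 1.99, adjusted p = 0.00313), SCARNA2 rose by 1.42 and MIR2682 was listed at 0 in both 4 Gy libraries. FPKM of genes this short are unstable and a poly(A) library captures them in part. Of 150 tested small RNA genes 4 rose and 1 fell, beside 1.88% and 0.488% of all tested genes. But 9 rose and 6 fell in the fit of 6 degron (++) libraries, 12 and 7 in the fit of 4 libraries, and 13 and 9 in that fit with a replicate block. The summed FPKM of small RNA genes without MIR622 was 83427 and 106174 at 0 Gy and 104651 and 110288 at 4 Gy, so the doses overlapped.

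The same dose contrast in degron (−) cells uses 4 other libraries. There, 502 genes were higher (4.3%) and 102 lower (0.874%) at 48 h. These counts and the list values below cover the same 11677 genes, kept by their FPKM in degron (++) cells. Genes expressed only in degron (−) cells are therefore absent, and some of the genes kept are near 0 there. Of the 277 genes of degron (++) cells, 94 passed in degron (−) cells too, 91 of them in the same direction, which is 33.9% of the calls of degron (++) cells and 15.6% of those of degron (−) cells. The summed histone FPKM went from 245 and 229 to 379.9 and 384, a ratio of 1.61 beside 1.58, and 8 histone genes passed with a median of 0.38. The NF-kB regulators had 5 of 9 genes higher in each population. Interferon-stimulated genes had 11 members higher in degron (−) cells with a median of 0.22, against 1 member and −0.04 in degron (++) cells. Epithelial junction genes had 15 members higher with a median of 0.28 against none and 0.06, and antigen presentation genes 8 with a median of 0.26 against none and 0.03. These counts per population do not test a difference.

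Tested directly, by the interaction of dose and population, 21 genes differed (limma, adjusted p under 0.05, 0.18% of the tested genes), and 1590 had an unadjusted p under 0.05. No histone gene was among them. DKK1 rose more in degron (++) cells, where the log2 fold change was 0.74 beside 0.15 in degron (−) cells (interaction 0.59, adjusted p = 0.00548), although its level in degron (−) cells was higher, at 261 and 252 FPKM at 0 Gy and 291 and 278 at 4 Gy. FHL2, a LIM domain cofactor, rose in degron (++) cells from 52.2 and 57.3 to 70.1 and 78.3 FPKM, and was 314 and 301 at 0 Gy and 263 and 269 at 4 Gy in degron (−) cells (interaction 0.64, adjusted p = 0.0399).

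Most of the 21 went the other way, with a log2 fold change nearer 0 or below 0 in degron (++) cells. LAMA3, a laminin chain, rose in degron (−) cells by 0.72 on the log2 scale, and its log2 fold change in degron (++) cells was 0.10. LAMA3 had 129 and 127 FPKM at 0 Gy and 137 in both libraries at 4 Gy in degron (++) cells, and 25 and 23.7 at 0 Gy and 38.8 and 42.8 at 4 Gy in degron (−) cells (interaction −0.62, adjusted p = 0.0355, limma). CDH1, E-cadherin, had 65.2 and 62.8 FPKM at 0 Gy and 66.6 in both libraries at 4 Gy in degron (++) cells, and went from 8.36 and 7.69 to 11.7 and 12.8 in degron (−) cells (interaction −0.50, adjusted p = 0.0498). ANPEP fell in degron (++) cells and rose in degron (−) cells, from 113 and 123 to 155 and 148 FPKM (interaction −1.0, adjusted p = 0.0313). At 0 Gy the levels of LAMA3 and CDH1 were several times higher in degron (++) than in degron (−) cells, and whether this difference in level bears on the interaction was not tested. In bulk RNA, a change in the share of cells that express a gene and a change of RNA per cell cannot be told apart. Without 0 Gy replicate 2 of degron (++) cells no gene passed the interaction threshold, and without 4 Gy replicate 1 of degron (−) cells 41 passed.

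**Figure D4:**
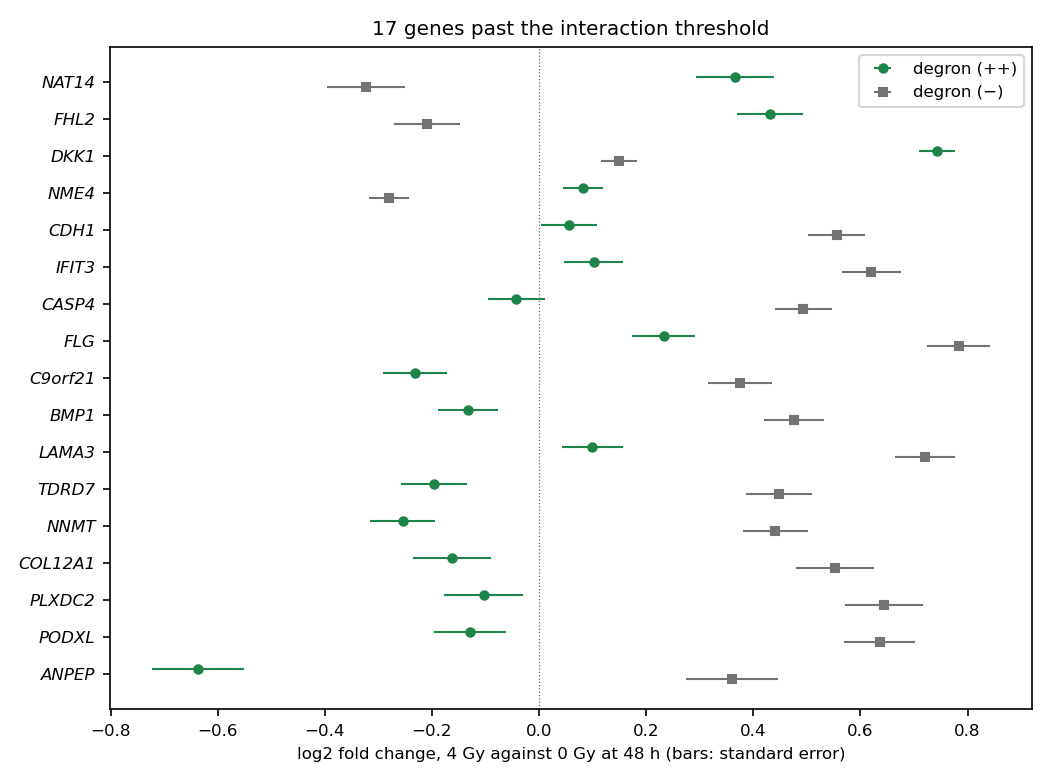
Log2 fold change of 4 Gy against 0 Gy at 48 h on the log2(FPKM + 1) scale (x axis) in degron (++) cells (green circles) and degron (−) cells (grey squares) for 17 of the genes past the interaction threshold (y axis), without the 3 small nucleolar RNA genes. Bars are standard errors from limma. In DKK1, FHL2, NAT14 and NME4 the green point lies to the right of the grey one, and in the other 13 genes to its left.

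The libraries at 4 Gy and 30 h have no 0 Gy library of their own time, so their values are given side by side with those of 48 h and without a test. At 30 h, IL6, with 24 and 19.7 FPKM, lay between its values at 0 Gy and 4 Gy and 48 h, as did GABARAPL1, with 59.7 and 54.0. FOSL1, with 126 in both libraries, and TNFAIP3 stood higher in the 30 h than in the 48 h libraries at 4 Gy. SQSTM1 had 227 and 223 FPKM and LAMB3 119 and 117 at 30 h, close to their values at 48 h. IFIT2 had 14.9 and 13.2 FPKM at 30 h, near its unirradiated values of 13.1 and 12.9.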

How the data were processed

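RNA was prepared by the submitters with a stranded poly(A) mRNA kit. The authors deposited FPKM per gene symbol and library, 23284 symbols in each. The submitters' processing notes name TopHat2 2.1.1, Bowtie2 2.2.8, SAMtools 0.1.18, Cuffdiff 2.2.1 and the build hg19, with no role or order. Counts were not used here, so the number of reads is unknown and no counting interval can be given.

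From the FPKM, log2(FPKM + 1) was fitted with limma 3.58.1 (lmFit, eBayes with trend) in R 4.3.3 as 6 group means over 12 libraries, with 6 residual degrees of freedom before moderation. Genes needed FPKM of at least 1 in at least 2 of the 4 libraries compared. The threshold was a Benjamini-Hochberg adjusted p of 0.05, two-sided. The members and lists were chosen with earlier results of these data known. Named genes were the 12 largest rises and 12 largest falls past the threshold without overlap, up to 4 list members per direction past the threshold, a set of familiar genes whatever their values, and genes past the interaction threshold, 95 in all after some that are not reported here were left out. Others are said to be chosen after their values were seen.

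On simulated data with 11677 genes, the dose contrast recovered 95% of 100 genes changed by 1 and 88% of 100 changed by 0.5 on the log2 scale, with 13 false calls. The changed genes were drawn only from genes of higher FPKM, and the noise was independent between libraries. Recovery of genes of low FPKM, or of changes below 0.5, was therefore not tested. Alternatives were a pseudocount of 0.1, other filters, quantile normalization, TPM rescaling, leaving out small RNA genes, no trend, a replicate block, fits on fewer libraries and leaving out each library. Deviations from the group means of the 0 Gy and 4 Gy groups correlated at 0.0638, and over all pairs of groups at −0.0305 to 0.165. These low correlations gave little sign that replicate numbers pair the libraries, but taken over all tested genes they cannot exclude it. Promoter windows came from RefSeq on GRCh38.p14, searched with Python 3.11.15 and pandas 2.3.3. Figures were drawn with matplotlib 3.10.9.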

Additional observations from a re-analysis of the deposited data

Results flagged for a closer look

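A total of 21 genes had a dose effect at 48 h that differed between degron (++) and degron (−) cells by the interaction term of limma (adjusted p under 0.05). Of these, 20 are given here. Values below are the log2 fold change in degron (++) cells minus that in degron (−) cells.

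The difference was positive for DKK1 (0.59), FHL2 (0.64), NAT14 (0.69), NME4 (0.36), SNORA45 (3.03) and SNORD89 (5.15). The log2 fold change was above 0 in both populations for DKK1 and below 0 in both for SNORD89. For FHL2, NAT14, NME4 and SNORA45 it was above 0 in degron (++) cells and below 0 in degron (−) cells. DKK1 and SNORA45 were past the threshold in the most alternatives of the 20 given, 17 of 19 and 16 of 18 alternatives. SNORA45 is one of the short RNA genes whose FPKM are unstable, and the number of reads behind its values is unknown. It was listed at 0 in both degron (−) libraries at 4 Gy and 30 h, so its passing in many alternatives may rest on few reads. NME4, a mitochondrial nucleoside diphosphate kinase, had 36.2 and 35.5 FPKM at 0 Gy and 38.4 and 37.5 at 4 Gy in degron (++) cells, and fell from 303 and 289 to 249 and 238 in degron (−) cells.

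The difference was negative for ANPEP (−1.0), COL12A1 (−0.72), LAMA3 (−0.62), BMP1 (−0.61), CDH1 (−0.50), PODXL (−0.76), PLXDC2 (−0.75) and FLG (−0.55). It was also negative for NNMT (−0.70), TDRD7 (−0.64), C9orf21 (−0.61), CASP4 (−0.54), IFIT3 (−0.52) and SNORA29 (−4.81). CASP4, an inflammatory caspase, had 109 and 111 FPKM at 0 Gy and 107 and 106 at 4 Gy in degron (++) cells, and rose from 26.4 and 25.8 to 35.5 and 38.9 in degron (−) cells. SNORA29 was listed at 0 in both degron (−) libraries at 0 Gy and SNORD89 in both at 4 Gy, so the sizes of these 2 differences depend on the pseudocount.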

How the results depend on the processing

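The 277 genes (220 higher, 57 lower) and the 21 interaction genes depended on how the spread was estimated. Fits of the 6 degron (++) libraries gave 97 genes (80 higher, 17 lower) and of the 4 libraries 54 (43 higher, 11 lower). Among the 277 were 74 of the 97 and 33 of the 54, and of the lower genes only 9 and 4. The replicate number as a block gave 157 genes (132 higher, 25 lower) with 3 interaction genes. In the 4 libraries it gave 45 (36 higher, 9 lower), where the labels give the libraries only a shared number. Of the 157 genes 150 were among the 277, and of the 45 genes 24, with 1 of the 9 lower ones. The 8 libraries at 48 h gave 7 interaction genes, and 5 with the replicate block. Without trend, 145 genes were higher and 4 passed the interaction. Leaving out a library of the contrast gave 17 to 59 genes, 16 to 50 higher and 1 to 9 lower, and, with each library of degron (−) cells at 48 h also left out, 0 to 41 interaction genes. The arm with 1 library was then taken to vary like the other groups.

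Scaling mattered for direction. TPM rescaling gave 64 genes (39 higher, 25 lower) and put the median of all genes at −0.061. Quantile normalization gave 99 lower genes and 44 interaction genes, and leaving out small RNA genes 145 lower and 99 interaction genes. Without a filter 4 genes passed the interaction, and with the filter over all 12 libraries 10. Of the genes given by name, 67 were called. Past the threshold stayed 60 after quantile normalization, 22 after TPM rescaling, 27 in the fit of 6 libraries and 16 in that of 4. Without small RNA genes 56 of 62 did. Under all alternatives 0 of these genes reversed. Their libraries did not overlap between the doses, so only quantile normalization and the rescalings could have reversed a sign. Genes that were not called and changed sign were PLK1 (−0.0099 quantile, −0.040 TPM, −0.0093 without small RNA genes), PCNA (−0.045, −0.049 and −0.018), MCL1 (−0.025, −0.058 and −0.027), CDH1 (−0.015 TPM) and SNORA29 (−0.031 TPM). With a library left out, PCNA ranged from −0.00759 to 0.055, SNORA29 from −0.0069 to 0.082, PLK1 from −0.0077 to 0.071, IFIT1 from −0.0067 to 0.15 and SNORD89 from −0.96 to 0.059. The causes were not tested. With 2 libraries a group and unknown depth, small differences of low genes could not be resolved.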
